A study of Mus musculus with 2 samples.

Results

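Akr1c18, which encodes an aldo-keto reductase that turns progesterone into an inactive alcohol, was followed with 8 other genes of steroid and reductase metabolism in regulatory T (Treg) cells, which hold back the responses of other lymphocytes. The genes were Akr1c18, its relatives Akr1c12, Akr1c13 and Akr1b3, and the steroid enzymes and carriers Cyp11a1, Srd5a1, Srd5a3, Hsd17b7 and Star. Probe sets were taken where the platform annotation gave the gene's symbol. Of these 9 genes, 7 had a probe set of their own, 18 probe sets in all out of 34945 that named 1 gene, and 1 further probe set named Akr1c12 and Akr1c13 together. No probe set was matched to Akr1b3 or Srd5a1. Akr1c18 was chosen by its high ratio between these same arrays, so its values are a description. The other members were gathered around it, with results of these arrays known.

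Spleen CD4+CD25hi cells of mice 6 to 8 weeks old were compared between wild-type littermates and miR-125a-deficient (KO) mice. CD4 cells were enriched magnetically and sorted by flow cytometry, and equal amounts of RNA from several mice were pooled per genotype. Each genotype was read on 1 Affymetrix Mouse Genome short-oligonucleotide array from 6 ug of total RNA. How miR-125a was deleted, in which cells, and how many mice made a pool are not given in the sources used here. Neither pool was repeated, so no test compares the genotypes and no p-value is given. RNA of a mixed pool also cannot tell more cells of a kind from more transcript per cell.

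Steroid hormones are made from cholesterol. Star carries cholesterol into mitochondria, Cyp11a1 cleaves its side chain to give pregnenolone, and dehydrogenases and reductases then make, convert or inactivate the active hormones. T cells are mostly a target of steroids, but Cyp11a1 and pregnenolone production have been described in type 2 helper T (Th2) cells.

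The microRNA that separates the genotypes, and the start-site windows of the 3 Akr1c members, are shown because these genes lie in the same run of relatives on chromosome 13 and had unlike ratios. Sequences are from RefSeq, build GRCm38.p6, written 5′ to 3′. The seed of mmu-miR-125a-5p (bases 2 to 8) is in capitals, at chr17:17830817-17830840 on the plus strand. The windows run from 250 bases before to 50 after the start of the gene, and were chr13:4150597-4150896 (minus strand) for Akr1c18, chr13:4279350-4279649 (minus strand) for Akr1c12 and chr13:4190937-4191236 (plus strand) for Akr1c13. Capitals there mark matches to the GATA motif (AGATAA, in which the first letter may also be T and the last G) or to TATAA, on either strand.
mmu-miR-125a-5p: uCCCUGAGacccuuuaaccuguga
Akr1c18: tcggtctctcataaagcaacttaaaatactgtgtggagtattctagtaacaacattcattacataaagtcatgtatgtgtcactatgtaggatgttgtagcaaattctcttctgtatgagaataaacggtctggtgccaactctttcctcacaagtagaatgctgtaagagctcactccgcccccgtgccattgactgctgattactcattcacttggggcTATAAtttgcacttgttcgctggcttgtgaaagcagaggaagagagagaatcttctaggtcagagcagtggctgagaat
Akr1c12: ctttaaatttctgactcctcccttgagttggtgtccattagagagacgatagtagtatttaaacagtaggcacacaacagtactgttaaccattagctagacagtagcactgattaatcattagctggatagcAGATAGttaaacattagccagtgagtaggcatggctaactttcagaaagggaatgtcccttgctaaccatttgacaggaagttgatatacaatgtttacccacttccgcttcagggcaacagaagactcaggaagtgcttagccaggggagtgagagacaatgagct
Akr1c13: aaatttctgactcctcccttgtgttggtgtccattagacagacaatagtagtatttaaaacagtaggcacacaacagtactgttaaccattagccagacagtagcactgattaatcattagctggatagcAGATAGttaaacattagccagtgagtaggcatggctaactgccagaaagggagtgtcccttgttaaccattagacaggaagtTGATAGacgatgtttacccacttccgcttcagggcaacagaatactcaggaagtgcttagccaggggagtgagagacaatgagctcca

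The windows of Akr1c12 and Akr1c13 were near copies, identical at 284 of 304 aligned positions (93.4%). That of Akr1c18 matched them at 52.6% and 50.7%, little above the 43.5% to 50.6% found between these 3 windows and the 5 windows of the other members. Those 5 hold more G and C, 51.0% to 64.7% against 42.3% to 43.7%, so they are not a matched baseline. Among the windows of 7 Akr1c genes, the 20 pairs other than Akr1c12 with Akr1c13 had 48.9% to 59.8%, with a median of 51.3%. These 20 include the pairs with Akr1c18. The GATA motif was looked for because Gata3, the GATA factor of Th2 cells, had a higher signal in the KO pool. The motif was thus chosen from these same arrays. Akr1c13 held 2 matches, at positions -120 and -38 from the start, Akr1c12 held 1 at -117 and Akr1c18 held 0. Of 32851 windows of the same length, 29.8% held at least 1 match, against 4 of the 8 windows found for 7 of the 9 members. Those 4 include the near copies of Akr1c12 and Akr1c13, and Cyp11a1 gave 2 of the 8 windows. The windows are thus not separate cases, and no excess is read from the count. TATAA stood at position -29 of Akr1c18 and in 24.9% of all windows. The motif AAGGTCA of steroidogenic factor 1, which drives steroid enzymes in adrenal and gonad, was in none of the 8 windows of members and in 4.72% of all. Only that exact string was searched, on either strand. Shorter or variant forms were not, so their absence is not shown. A match is a string of letters and not a measured site. Sequence outside the windows was not searched, and whether Gata3 acts on any of these genes was not tested.

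Akr1c18 had a MAS5 signal of 699 in the wild-type pool and 4361 in the KO pool. MAS5 signals are in arbitrary units, with each array scaled to a trimmed mean of 500.0, and folds and ratios are taken only within a probe set. The log2 ratio was 2.61, a 6.12-fold higher signal in the KO pool. Ratios carry a pseudocount of 16.3 in both pools. The gene has 1 probe set, so no second reading of it was made. The spread between probe sets of the same gene gives the only repeat measurement on these arrays. This probe-set SD of the log2 ratio was 0.19 among genes of similar signal, and it leaves out variation between mice. Since the probe sets of a gene are read on the same arrays, it also leaves out RNA preparation or array differences that shift them together. Of the 19229 probe sets that named 1 gene and had a mean signal of at least 62.5, 5 had a higher ratio.

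**Figure D1:**
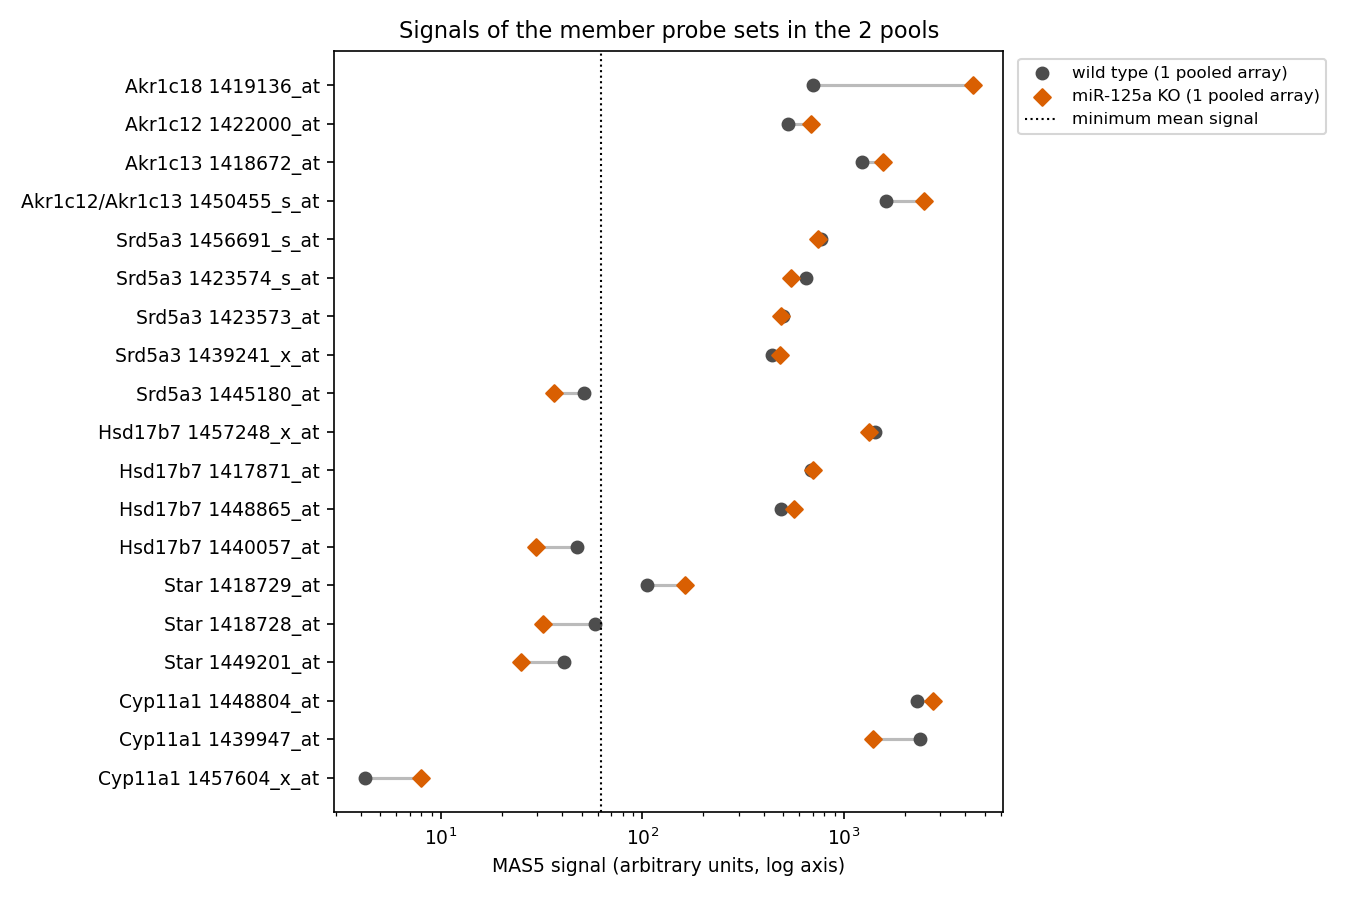
MAS5 signal (arbitrary units, log axis) of each of the 18 member probe sets and of the 1 that names Akr1c12 and Akr1c13 together, in the wild-type pool (circles) and the KO pool (diamonds), 1 array each; the dotted line is the minimum mean signal of 62.5. The wide gap is that of Akr1c18, from 699 to 4361, while the probe sets of Srd5a3 and Hsd17b7 past the minimum nearly coincide between the pools.

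Akr1c12 and Akr1c13, reductases of the same family, were also higher in the KO pool, by far less. Akr1c12 was at 689 against 529 in the wild-type pool, a log2 ratio of 0.37 (probe-set SD 0.27). Akr1c13 was at 1568 against 1229, a log2 ratio of 0.35 (probe-set SD 0.20). The probe set that names both was at 2501 against 1609, a log2 ratio of 0.63 (probe-set SD 0.21). The 3 readings went the same way, between 1.35 and 2.99 times the probe-set SD, but they are not independent of each other. Of all probe sets that named 1 gene and passed the minimum, 88.0%, 86.7% and 96.2% had a lower ratio than these 3, in that order. Since 1 probe set names both genes, how far each gene's own probe set reads only its own transcript is uncertain.

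Star, the cholesterol carrier, was dim. Its brightest probe set was at 163 in the KO pool and 105 in the wild-type pool, a log2 ratio of 0.55 (probe-set SD 0.38). The other 2 lay below the minimum and went the opposite way, at 32.1 against 58.4 and at 24.9 against 41.0. No direction can be given for Star.

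Cyp11a1, which makes pregnenolone, had a pair of well-measured probe sets that disagreed. The brighter was at 2761 in the KO pool and 2300.2 in the wild-type pool, a log2 ratio of 0.26 (probe-set SD 0.19). The other was at 1395 against 2376, a log2 ratio of -0.76 (probe-set SD 0.21). Their ratios lay 1.02 apart. Among 503 genes of similar signal with at least 2 probe sets, 3 had a gap this wide, Cyp11a1 included, and among all 5030 such genes 89 did (1.77%). The third probe set was below the minimum, at 7.92 against 4.18. The RefSeq table lists 2 start windows for the gene, and whether the probe sets read different transcripts was not tested. Cyp11a1 signal was thus far above the minimum in both pools, and the direction of its ratio turned with the probe set.

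Srd5a3, a reductase named for steroid reduction and needed to make dolichol for protein glycosylation, had like signals in both pools. Its 4 probe sets past the minimum had log2 ratios from -0.24 to 0.13, each within its probe-set SD of 0. The brightest was at 739 in the KO pool and 765 in the wild-type pool. The last of its probe sets was below the minimum, at 36.6 against 51.0. Hsd17b7, a dehydrogenase of cholesterol synthesis that also makes estradiol, had 3 probe sets past the minimum with log2 ratios from -0.09 to 0.21, again within the probe-set SD. The brightest was at 1332 against 1422 in the wild-type pool. A further probe set was below the minimum, at 29.7 against 47.5.

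Of the 18 probe sets that name 1 member, 13 passed the signal minimum. At a 2-fold difference, 1 was higher in the KO pool, that of Akr1c18, and 0 were lower. The background over all 19229 probe sets past the minimum was 1.03% for a 2-fold higher signal, 1.38% for a 2-fold lower one and 2.42% for either. Akr1c18 entered the members for its ratio, so nothing is read from that 1 of 13. The 12 others had a median log2 ratio of 0.08 and a range from -0.76 to 0.55, with 7 above 0 and 5 below, beside a median of -0.02 over all probe sets. The median size of the ratio, whatever its sign, was 0.22 for these 12 and 0.22 for all probe sets.

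**Figure D2:**
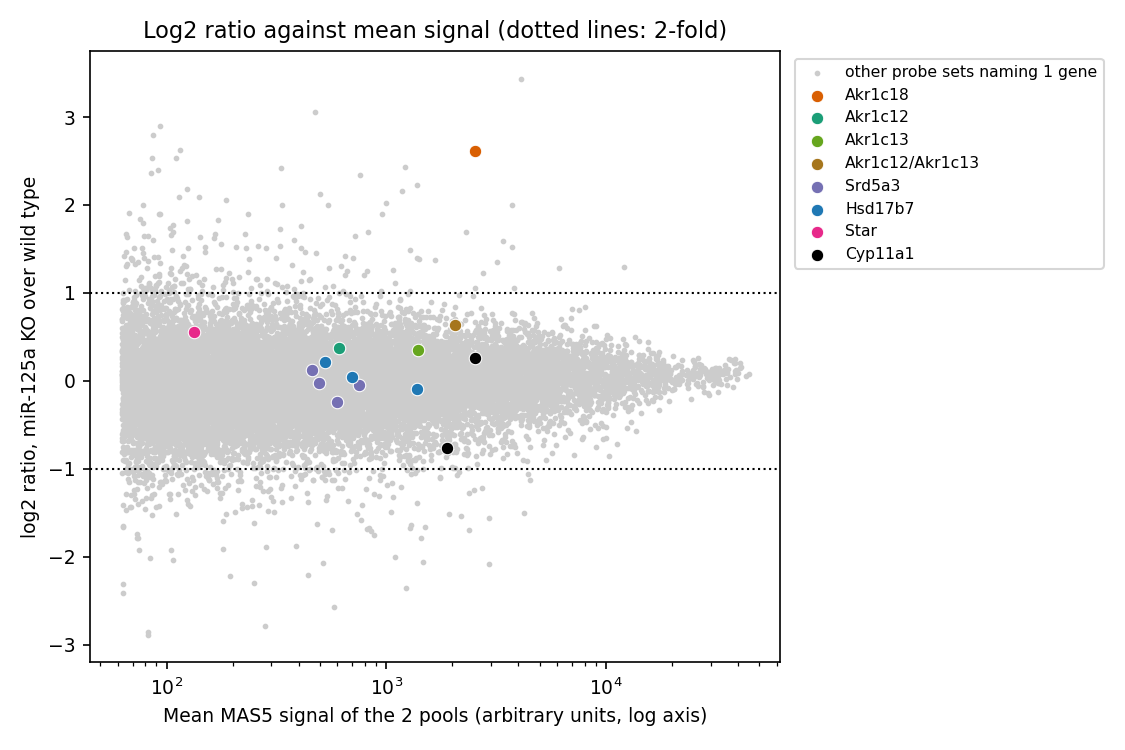
Log2 ratio of the miR-125a-deficient over the wild-type pool against the mean MAS5 signal (arbitrary units, log axis); each grey point is 1 probe set naming 1 gene and past the minimum, coloured points are members, and dotted lines mark 2-fold. Akr1c18 stands at 2.61, and the 12 other probe sets naming 1 member lie between -0.76 and 0.55, all within the dotted lines.

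Akr1c18 lies in a run of 8 Akr1c genes on chromosome 13, all of which had a probe set. Only Akr1c18, Akr1c12 and Akr1c13 passed the minimum. The 5 others, Akr1c14, Akr1c19, Akr1c6, Akr1c20 and Akr1c21, lay below it in mean signal. Akr1c14, the neighbour on the other side of Akr1c18, was at 12.8 in the KO pool and 24.1 in the wild-type pool. Akr1c21 was at 47.3 against 4.45, values too dim for a ratio. Beyond the run, Akr1e1, another aldo-keto reductase, was at 731 against 746, and Net1 was at 614 against 709. The probe sets of Pitrm1, a mitochondrial protease, disagreed, with log2 ratios of 0.85 and -0.28. A ratio as high as that of Akr1c18 was not seen in the neighbouring genes that passed the minimum.

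**Figure D3:**
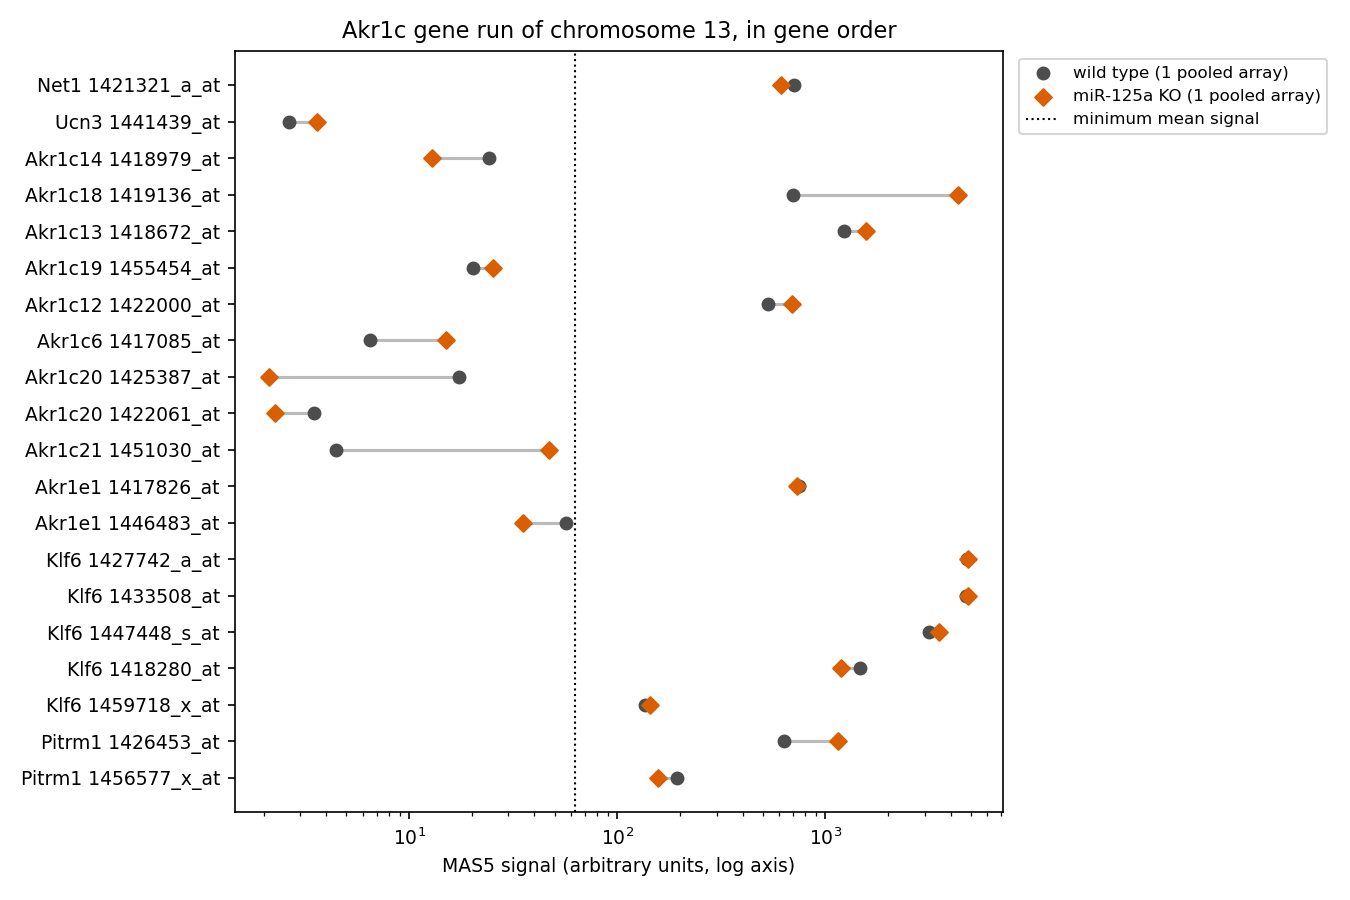
MAS5 signal (arbitrary units, log axis) in the wild-type pool (circles) and the KO pool (diamonds) of every probe set of the 8 Akr1c genes and of flanking protein-coding genes, from top to bottom in chromosome order; the dotted line is the minimum mean signal of 62.5. Akr1c18 is the gene with a wide gap to the right of that line, and 5 of the 8 Akr1c genes lie to its left.

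Genes that make, convert and sense steroids were counted by their brightest probe set, beside all 10583 genes past the minimum, of which 1.08% had a 2-fold higher and 1.18% a 2-fold lower signal in the KO pool, 2.26% together, with a median log2 ratio of 0.01. In the list of other aldo-keto reductases, 0 of 5 genes past the minimum reached 2-fold and the median was -0.03. Akr1b8, a relative of aldose reductase, had the lowest ratio, -0.41, at 457 against 610 in the wild-type pool, and Akr7a5 the highest, 0.36, at 917 against 709. The other 7 measured genes of that list were below the minimum.

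In the steroid synthesis list, 0 of 11 genes reached 2-fold and the median was -0.05. Fdx1, the electron donor of Cyp11a1, had the lowest log2 ratio, -0.36, at 2761 against 3552 in the wild-type pool. Cyb5a, which assists later steps, followed at -0.13, and Acbd3 and Hsd17b1 had the highest, 0.14 and 0.12. The 3 other probe sets of Acbd3 past the minimum were all below 0, from -0.44 to -0.25. Of the later enzymes, Hsd3b7 passed the minimum, at 340 against 363 in the wild-type pool. Those named next were dim or near the minimum. Cyp21a1, a hydroxylase on the way to corticosterone, was at 105 against 106, and Hsd17b1, which makes estradiol, at 92.7 against 84.3. Hsd3b1, which makes progesterone, was at 49.5 against 29.1, Cyp17a1, which leads to androgens, at 10.1 against 4.78, and Cyp11b1, which makes corticosterone, at 13.5 against 8.39, all below the minimum in mean signal.

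In the steroid conversion list, 0 of 9 genes reached 2-fold and the median was -0.10. Sult2b1, a sulfotransferase of cholesterol and pregnenolone, had the lowest log2 ratio, -0.65, at 74.9 against 127 in the wild-type pool, near the minimum. Hsd17b13 had -0.53, at 51.2 against 81.3. Hsd17b11 had the highest, 0.58, at 930 against 617, with its other probe set at 0.36, and Hsd17b10, a mitochondrial dehydrogenase, had 0.29. Hsd11b1, which regenerates active glucocorticoid, was at 289 against 373.

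Of the steroid receptors and their partners, 0 of 7 reached 2-fold and the median was -0.07. Pgr, the nuclear progesterone receptor, was below the minimum, at 34.8 against 37.1 in the wild-type pool. Membrane-associated progesterone receptor components were well measured and alike by their brightest probe sets, Pgrmc1 at 2639 against 2764 and Pgrmc2 at 1762 against 1741. A dimmer probe set of Pgrmc2 was at 181 against 126, a log2 ratio of 0.47. Paqr7, a membrane progestin receptor, had a log2 ratio of -0.27, with its other probe set at -0.61, and Paqr8 had -0.11. Nr3c1, the glucocorticoid receptor, was at 947 against 1013, a log2 ratio of -0.09, with its other probe sets from -0.43 to 0.10. Fkbp4, a cochaperone of steroid receptors, had the highest ratio, 0.69, at 1423 against 875, but its other probe set had -0.38. Esr1, an estrogen receptor, had 0.04.

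Genes that respond to glucocorticoids gave 0 of 9 at 2-fold and a median of -0.11. Sgk1, a kinase, had the lowest log2 ratio, -0.52, at 8195 against 11758, and Dusp1, a phosphatase of MAP kinases, had -0.42. Fkbp5 and Ddit4 had the highest, 0.11 and 0.07, with the other probe set of Fkbp5 at -0.42. Of regulators of steroidogenic genes, 4 passed the minimum and 0 reached 2-fold, with Sp1 lowest at -0.41, Creb1 at -0.21, Nr4a1 at 0.02 and Crem highest at 0.31. Nr5a1, which encodes steroidogenic factor 1, was below the minimum, at 31.4 against 38.9. Cholesterol synthesis, which supplies the substrate, had 0 of 18 genes at 2-fold and a median of -0.03, from Sc5d at -0.28 and Hmgcs1 at -0.26 to Lss at 0.32 and Mvk at 0.40.

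**Figure D4:**
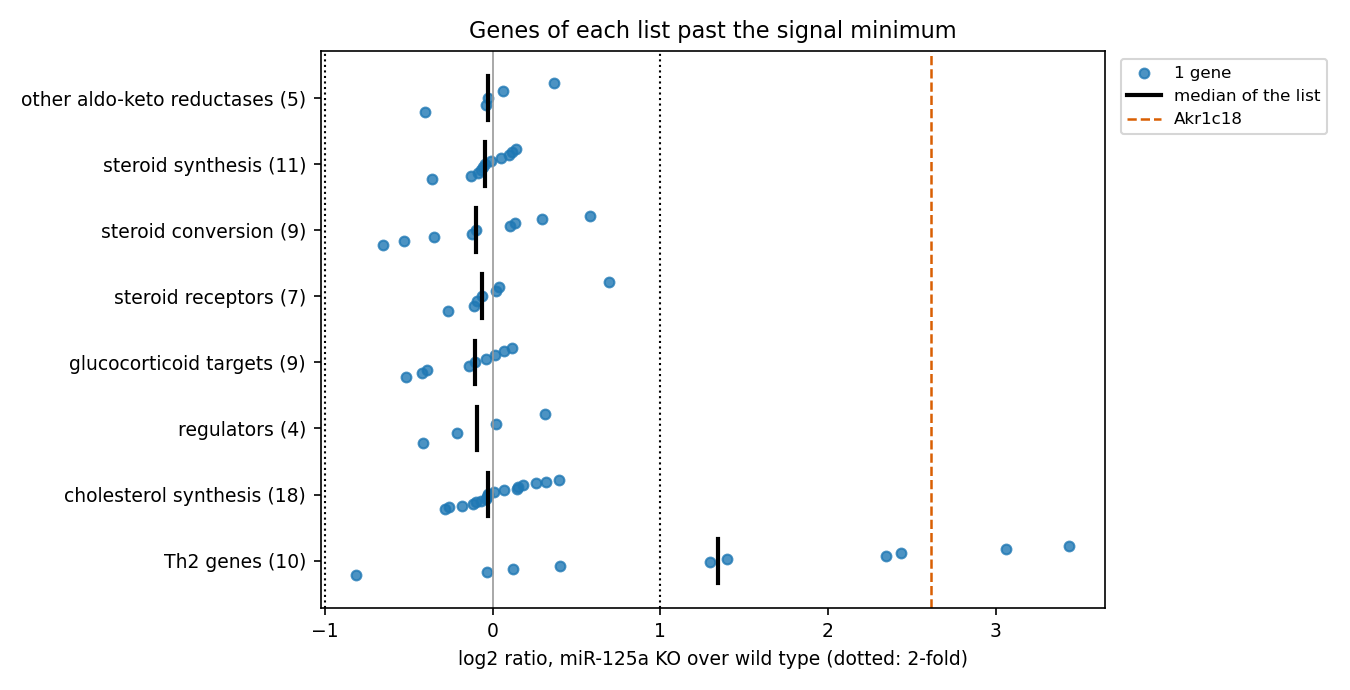
Log2 ratio of the miR-125a-deficient over the wild-type pool for each gene past the signal minimum, by list, with the number of genes in brackets; black bars are list medians, dotted lines mark 2-fold and the dashed line is Akr1c18. The 7 steroid, reductase and cholesterol lists have medians from -0.11 to -0.03 and no gene at 2-fold, while 6 of 10 Th2 genes lie beyond 2-fold.

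The genes whose log2 ratio was nearest to that of Akr1c18, over 2 pools and 10582 other genes past the minimum, were Il13 (2.44), Pde1a (2.42), Tuba8 (2.36), Il4 (2.35) and Oaf (2.89). Their difference from Akr1c18 was at most 0.28 in size. Tuba8 and Oaf passed the minimum through the KO pool alone, at 153 against 16.6 and at 177 against 9.71, so their ratios depend on the pseudocount. That of Tuba8 ran from 1.44 with a pseudocount at the median signal to 3.13 with 1, and that of Oaf from 1.72 to 4.06, whereas that of Il13 ran from 2.30 to 2.48. Likeness over only 2 pools means a similar ratio and no more. Il4 was at 1283 against 239 in the wild-type pool and Il13 at 2076 against 371. Gata3 was at 2016 against 756, 2.63-fold higher. In the Th2 list as a whole 6 of 10 genes were at least 2-fold higher, these 3 with Il5, Il9 and Il24, and the median was 1.34. The list was known from these arrays and is not independent evidence. Maf, a factor that activates Il4, had -0.82, and Ccr4, a chemokine receptor, had -0.04.

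The sorted cells were checked by markers. All 9 measured T cell markers passed the minimum, with log2 ratios from -0.41 to 0.22, and so did all 8 Treg markers. The Treg markers went both ways, 4 above 0 and 4 below with a median of -0.03, from Foxp3 at -1.21, the 1 member beyond 2-fold at 694 against 1631, to Ikzf2 at 0.45. Basophil and mast cell markers, cells that also make Il4 and Il13, had 4 of 11 genes past the minimum and a summed signal of 918 in the KO pool against 1280 in the wild-type pool. That difference was nearly all Kit, at 285 against 643, a log2 ratio of -1.13: without Kit, left out after seeing the data, the 10 others summed to 633 against 637. Of these, Cpa3 and Fcer1a were at 104 against 153 and 176 against 180, and Gata2 was higher, at 176 against 126, a log2 ratio of 0.44. Below the minimum, Mcpt8 was at 24.1 against 55.3, Hdc at 6.82 against 40.5, Ms4a2 at 49.6 against 23.1 and Cma1 at 52.4 against 7.71. Among the 10 genes without Kit, 3 were higher in the KO pool and 7 were lower, most of them below the minimum. None of the list was at the lowest deposited value. A sum over probe sets is led by the brightest of them. Myeloid markers passed the minimum in 3 of 10 cases with a sum of 469 against 691, among them Fcer1g at 103 against 226, a log2 ratio of -1.02. B cell markers passed in 2 of 7 (384 against 397), neutrophil markers in 0 of 7 (152 against 294) and erythroid markers in 1 of 4 (125 against 99.8). CD8 T and NK cell markers passed in 4 of 6 with a sum of 6238 against 9443, led by Klrd1, and 1173 against 1525 without it. The part of these cells in the steroid gene values was not tested.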

How the data were processed

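The authors deposited log2 values for 45101 probe sets on 2 arrays, made with MAS5 (no version given) per the submitters' processing notes. MAS5 subtracts mismatch signal, so low values vary widely. Turned back to linear signals, both arrays had a mean of 500.0 after trimming 2% from each end. The lowest deposited value, 0, was held by 552 wild-type and 473 miR-125a-deficient probe sets. Median signals were 64.1 and 62.4, and log2 signals past the minimum correlated across probe sets with an r of 0.975, probe sets not being replicates. Detection calls were not used here.

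The platform annotation named 1 gene for 34945 probe sets and several for 932, which stayed out of counts. The genes of 34741 were found in a RefSeq table (GRCm38.p6). The log2 ratio is that of the miR-125a-deficient over the wild-type signal, each plus 16.3, the 25th percentile of all signals. The minimum mean signal of 62.5 is the median over probe sets. Lists used the brightest probe set of each of 18193 genes. Probe-set SD is the SD of the difference between the ratios of a gene's 2 brightest probe sets, over the square root of 2. It was taken in 10 signal groups of 503 genes each, 5030 in all. Called means 2-fold or more. Python 3.11.15, pandas 2.3.3, statsmodels 0.14.6 and Biopython 1.88 were used, and the scripts were tested on simulated data. Members and lists were chosen with earlier results of these data known. All probe sets of members were named, with up to 2 highest and 2 lowest of each list, genes at 2-fold, and the 5 nearest to Akr1c18. Other genes, among them Pitrm1, Net1, Akr1e1 and the dim steroid enzymes, were named after their values were seen. Alternatives were 3 other scalings, 2 other pseudocounts, 2 other filters, folds of 1.5 and 3, the mean over probe sets, and leaving out probe sets ending in _x_at or _s_at.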

Additional observations from a re-analysis of the deposited data

How the results depend on the processing

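No paired analysis was possible because each genotype has 1 pooled sample. The log2 ratio of Akr1c18 lay between 2.54 and 2.65 in 5 alternatives (equal medians, quantile normalization, loess, and pseudocounts of 1 and of the median signal), and the mean over probe sets could not be taken for its 1 probe set. Probe sets with a higher ratio than Akr1c18 numbered 5 as deposited, 2 with the pseudocount at the median signal and 9 with a pseudocount of 1. The ratios of the 12 other member probe sets moved by less than their probe-set SD in the same 5 alternatives. The sign turned in 3 of them for 1 of the Srd5a3 probe sets and in 1 for another, both near 0, and in none for the others. Counting the probe set that names Akr1c12 and Akr1c13, added after seeing the data, left 1 member higher and 0 lower. Without Akr1c18, also added then, 0 were higher. At 1.5-fold, 1 was lower, the second-brightest probe set of Cyp11a1. Counts over all probe sets depended on filter, pseudocount and fold. From 199 higher and 266 lower they became 95 and 109 with the pseudocount at the median signal, 1491 and 1187 with no filter, 45 and 76 with the minimum at the 75th percentile, 908 and 1375 at 1.5-fold, and 54 and 39 at 3-fold. The share of higher among called probe sets was 42.8% as deposited, 50.4% with equal medians, 53.9% after quantile normalization and 54.6% after loess. The medians of the 7 steroid, reductase and cholesterol lists stayed between -0.15 and 0.13 over 8 alternatives. In 5 of these lists the median turned sign in at least 1 alternative. It stayed below 0 for the steroid receptors (-0.08 to -0.03) and the glucocorticoid targets (-0.15 to -0.07). With 1 array per genotype, no direction is read from any of the 7. Low signal limits Star, Pgr and the dim later steroid enzymes, whose ratios carry little information.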
